A study of Mus musculus with 16 samples.

Results

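The 10 genes described here encode receptors through which macrophages sense extracellular nucleotides and adenosine: the ATP-gated channels P2rx4 and P2rx7, the G protein-coupled nucleotide receptors P2ry2, P2ry6, P2ry12, P2ry13 and P2ry14, and the adenosine receptors Adora2a, Adora2b and Adora3. They were taken by symbol from a table of 47069 genes, and all 10 had counts in every library. C57BL/6 mice aged 8 to 10 weeks gave the bone marrow, and macrophages derived from it (BMMs) were grown in L929-conditioned medium and primed overnight with IFNγ at 10 ng/mL. Both groups were then activated for 1 hr with LPS at 100 ng/mL plus immune complexes (ICs) of ovalbumin with rabbit IgG. The DMSO group received the vehicle at 0.01%, and the GSI group received DAPT at 25 μM, according to the methods overnight before activation. Figure legends for other experiments of the paper give a shorter pre-treatment, so the length of exposure is uncertain. DAPT is a γ-secretase inhibitor that blocks the cleavage of Notch receptors but also of other membrane proteins. Unstimulated cells were not analysed here, so the values compare DAPT with its vehicle within activated cells.

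Each group had 2 replicates of 4 sequencing runs, which were summed to 4 libraries of 42694655 to 56932059 counts. The labels do not say whether replicates were separate mice or cultures, so p-values measure the spread between these libraries, which may be technical, and an SD rests on a single difference. Levels are given in CPM, the usual counts relative to library size, here after TMM scaling. A count of 0 allows up to 3 counts, or 0.0529 to 0.0697 CPM depending on the library, for counting error only. A gene was called when the false discovery rate (FDR) of edgeR's quasi-likelihood test, adjusted by Benjamini-Hochberg over 13211 genes, was under 0.05. Log2 fold changes are GSI relative to DMSO and carry their standard error after the ± sign. All 8 macrophage markers were at 45.5 CPM or more in every library, with Lyz2, the lysozyme gene, highest at 5400 CPM in DMSO. Defining markers of mast cells (Cpa3, Fcer1a, Ms4a2), of platelets (Gp9, Gp1bb) and of microglia (Tmem119, Sall1) had 0 counts in all 4 libraries. Of the Notch targets, Hes1 had 5 and 2 counts in DMSO and 1 and 5 in GSI, and Hey1 had 1 to 5 counts, too few to test. Notch1 itself was lower with GSI, with a log2 fold change of -0.64. In other assays, the paper reports that GSI prevented the appearance of cleaved Notch1 protein and lowered Hes1 mRNA by qPCR.

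Extracellular ATP leaves stressed or activated cells through channels and acts on P2X channels and P2Y receptors. Ectonucleotidases on the cell surface then convert it stepwise to ADP, AMP and adenosine, which acts on adenosine receptors. In macrophages P2X7 is best known for opening at high ATP concentrations and triggering the NLRP3 inflammasome, whereas adenosine acting through Gs-coupled receptors raises cAMP, dampens inflammatory cytokines and favours IL-10.

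Several of the genes lie side by side on the genome (GRCm38, positions and exons from GENCODE M21, all protein-coding). P2rx7 (chromosome 5, 122643911 to 122691432, plus strand) is followed 16111 bases downstream by P2rx4 (122707544 to 122729738), and these neighbours moved in opposite directions. P2ry6 (chromosome 7, 100937630 to 100974649) and P2ry2 (100996568 to 101012866) lie 21918 bases apart on the minus strand, and both fell. P2ry14 (chromosome 3, 59113855 to 59153618), P2ry13 (59207892 to 59210882) and P2ry12 (59216272 to 59262871) lie on the minus strand inside the span of Med12l, a gene of the plus strand. Adora3 (105870858 to 105908926) lies farther along chromosome 3, Adora2a on chromosome 10 (75316877 to 75334784) and Adora2b on chromosome 11 (62248984 to 62266453). The coding sequence of the longest isoform was spread over 12 exons for P2rx4 and 13 for P2rx7, against 1 or 2 exons for each of the G protein-coupled receptors.

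The 250 bases before the transcription start are shown for the neighbouring genes P2rx7 and P2rx4, which differed in direction, for P2ry12 and P2ry13, which lie 5389 bases apart and were both weakly expressed, and for Adora2b, the adenosine receptor with the highest level. They are RefSeq promoters on GRCm38.p6, 5′ to 3′ on the strand of the gene (for P2rx7 the first of 2 listed starts), at chr5:122643677-122643926, chr5:122707294-122707543, chr3:59262986-59263235, chr3:59210883-59211132 and chr11:62248734-62248983. Capitals mark GAGGAA, the core bound by the macrophage factor PU.1.
P2rx7: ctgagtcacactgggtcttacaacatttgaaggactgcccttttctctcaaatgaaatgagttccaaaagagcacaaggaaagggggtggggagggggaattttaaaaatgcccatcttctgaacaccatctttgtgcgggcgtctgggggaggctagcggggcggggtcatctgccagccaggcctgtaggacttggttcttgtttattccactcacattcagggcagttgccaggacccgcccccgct
P2rx4: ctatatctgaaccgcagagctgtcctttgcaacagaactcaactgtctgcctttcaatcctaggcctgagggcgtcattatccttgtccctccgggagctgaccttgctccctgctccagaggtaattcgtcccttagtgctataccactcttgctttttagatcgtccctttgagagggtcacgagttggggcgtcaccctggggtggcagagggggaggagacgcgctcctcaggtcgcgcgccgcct
P2ry12: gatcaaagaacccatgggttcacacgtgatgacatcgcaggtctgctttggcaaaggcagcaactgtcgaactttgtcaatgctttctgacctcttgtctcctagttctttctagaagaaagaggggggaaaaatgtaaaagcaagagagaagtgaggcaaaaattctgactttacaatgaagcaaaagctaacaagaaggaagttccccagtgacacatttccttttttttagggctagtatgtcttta
P2ry13: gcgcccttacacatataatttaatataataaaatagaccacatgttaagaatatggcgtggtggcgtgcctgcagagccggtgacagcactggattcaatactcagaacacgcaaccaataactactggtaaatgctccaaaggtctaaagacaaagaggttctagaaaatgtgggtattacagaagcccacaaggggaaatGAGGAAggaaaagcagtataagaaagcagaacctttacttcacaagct
Adora2b: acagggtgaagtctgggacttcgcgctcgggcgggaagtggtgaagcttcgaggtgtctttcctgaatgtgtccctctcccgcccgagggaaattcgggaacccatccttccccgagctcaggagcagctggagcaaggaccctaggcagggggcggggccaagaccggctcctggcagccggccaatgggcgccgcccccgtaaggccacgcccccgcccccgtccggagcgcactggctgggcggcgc

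Promoters were listed for 8 of the 10 genes, P2ry6 and Adora2a being the others. TGGGAA, the core of the site bound by the Notch effector RBPJ, was found on neither strand in these 8 windows, and the same held for the longer GTGGGAA, which contains it. Over all 32817 promoters of the same length, 21.6% held TGGGAA and 5.42% held GTGGGAA. The PU.1 core, a motif chosen after the counts were seen, stood 48 bases before the start of P2ry13, 21 bases before that of P2ry14 and, on the other strand, 28 bases before that of Adora3, against 23.3% of all promoters. The Adora2b window held 69.6% G and C, and those of P2ry12 and P2ry13 held 41.6% each, with a median of 52.4% over all promoters. These are matches of letters and were not tested as binding sites.

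With GSI, 5 of the 10 receptors fell and 3 rose, and 2 were not called. P2ry2, P2ry6, P2rx7, P2ry12 and Adora2b were lower, and Adora2a, P2rx4 and P2ry14 were higher. Of all genes tested, 40.8% were called (21.9% lower and 19.0% higher), and 45.2% of those averaging at least 1 CPM, among which were 9 of the receptors, 8 of them called. The changes were moderate: log2 fold changes ran from -0.70 for P2ry2 to 1.01 for Adora2a, with a median size of 0.57 against 0.24 over all genes tested. None of the receptors passed the additional threshold of a log2 fold change above 1.5 in size, which 2.91% of all genes passed (2.17% lower and 0.742% higher). The groups did not overlap in 9 of the 10, with GSI below DMSO in 6 and above it in 3, against 70.6% of all genes tested (34.8% below and 35.8% above).

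**Figure D1:**
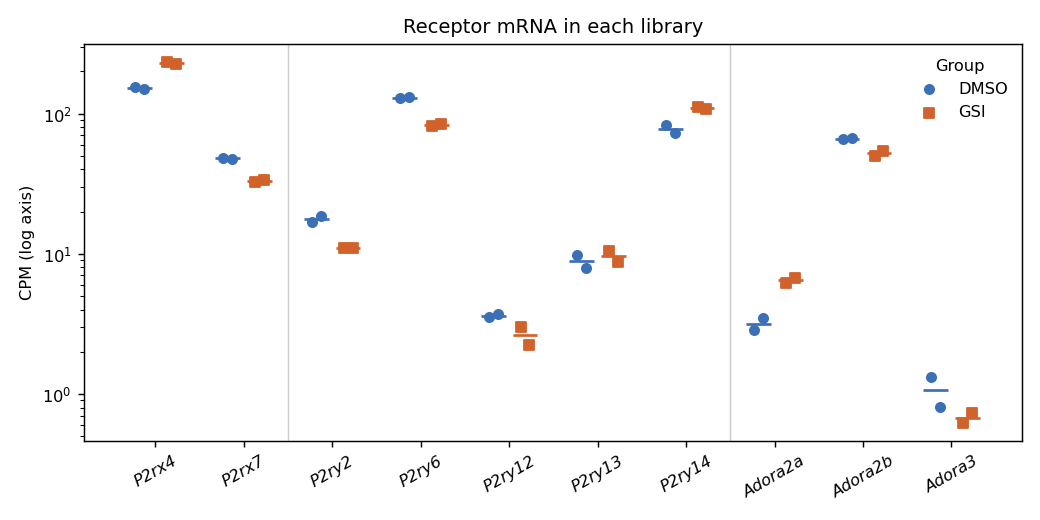
CPM of each receptor in each library on a log axis (circles DMSO, squares GSI, 2 libraries each; horizontal lines are group means, and vertical lines separate P2X, P2Y and adenosine receptors). The groups stand apart for every receptor but P2ry13, and the levels span from 0.621 CPM for Adora3 to 233 CPM for P2rx4.

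The ATP-gated channels moved apart. P2rx4, which encodes a channel opened by low concentrations of ATP and found largely on lysosomes, was at 154 and 150 CPM in the DMSO libraries and at 233 and 224 CPM in the GSI libraries. Both GSI libraries were higher by far more than replicates differed, a 1.5-fold rise (log2 fold change 0.59 ± 0.0691, edgeR FDR = 9.4e-07). P2rx7 went from 48.5 and 47.4 CPM to 32.3 and 33.4 CPM, so that both GSI libraries were lower. The log2 fold change of P2rx7 was -0.55 ± 0.0739 (edgeR FDR = 5.92e-06). Per P2rx7 count there were 3.18 and 3.16 P2rx4 counts in DMSO and 7.19 and 6.72 in GSI. The exons of P2rx4 and P2rx7 overlapped none on the other strand, and the only gene sharing exon bases with P2rx7, Mir8115, had 0 counts.

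The Gq-coupled nucleotide receptors P2ry2 and P2ry6 both fell. P2ry6, the receptor for UDP that promotes phagocytosis and chemokine release, was at 129 and 131 CPM in DMSO and at 81.5 and 83.7 CPM in GSI. The replicates of each group lay close to each other and the groups did not overlap, for a log2 fold change of -0.66 ± 0.0693 (edgeR FDR = 2.13e-07). P2ry2, the receptor for ATP and UTP that guides phagocytes to dying cells, was at 16.8 and 18.7 CPM in DMSO and at 10.9 and 11 CPM in GSI. Both GSI libraries were lower, and the log2 fold change of P2ry2 was -0.70 ± 0.0938 (edgeR FDR = 5.5e-06). There were 7.72 and 7.02 P2ry6 counts per P2ry2 count in DMSO and 7.46 and 7.59 in GSI, ranges that overlapped.

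The Gi-coupled receptors P2ry12, P2ry13 and P2ry14 share a locus but not a direction. P2ry14, the receptor for UDP-glucose, had the most counts of them and was at 82.6 and 72.6 CPM in DMSO and at 111 and 107 CPM in GSI. The difference between the groups exceeded that between the DMSO replicates, with a log2 fold change of 0.49 ± 0.0757 (edgeR FDR = 2.77e-05). P2ry13, a receptor for ADP, was at 9.74 and 7.91 CPM in DMSO and at 10.5 and 8.73 CPM in GSI. Its groups overlapped, and the log2 fold change of 0.13 ± 0.119 had a 95% interval from -0.12 to 0.38 (edgeR FDR = 0.417). P2ry12, the other ADP receptor and a marker of microglia and platelets, rested on 152 and 211 counts in DMSO and 145 and 110 in GSI, or 3.53 and 3.72 CPM against 3.00 and 2.23 CPM. Both GSI libraries were lower, with a log2 fold change of -0.48 ± 0.162 (edgeR FDR = 0.0237), but the call was lost without GSI replicate 2 (log2 fold change -0.27, FDR = 0.244), without DMSO replicate 2 (FDR = 0.0976) and with DESeq2 (FDR = 0.115). Med12l, which spans the locus on the other strand, had 62 and 92 counts in DMSO and 92 and 90 in GSI and was not called. It shares 9 exon bases with P2ry12 and 0 with P2ry13 and P2ry14.

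Of the adenosine receptors, both Gs-coupled genes were called, in opposite directions. Adora2a, the high-affinity receptor through which adenosine restrains inflammatory cytokines, had 124 and 197 counts in DMSO and 298 and 334 in GSI. This corresponded to 2.88 and 3.47 CPM against 6.16 and 6.76 CPM, so the GSI libraries were higher and the groups did not overlap. It was the largest change among the 10 receptors, a 2.02-fold rise with a 95% interval from 1.66-fold to 2.46-fold (log2 fold change 1.01 ± 0.136, edgeR FDR = 5.13e-06). Adora2b, the low-affinity receptor, was at 65.7 and 66.4 CPM in DMSO and at 49.8 and 54.0 CPM in GSI. Adora2b had the smallest change of the receptors called, -0.35 ± 0.0733 on the log2 scale (edgeR FDR = 0.000742), and its groups did not overlap either. Adora2b counts outnumbered Adora2a counts 22.8 and 19.1 to 1 in DMSO and 8.08 and 7.99 to 1 in GSI.

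Adora3, a Gi-coupled adenosine receptor known from mast cells, was at the edge of what these libraries could measure, with 57 and 46 counts in DMSO and 30 and 36 in GSI. The GSI libraries were lower and the groups did not overlap, yet the log2 fold change of -0.63 ± 0.286 was not called (edgeR FDR = 0.0854). Without DMSO replicate 2 the value was -0.97 and was called (FDR = 0.0208), and without DMSO replicate 1 it was -0.26 (FDR = 0.631). It was also called with no filter on low counts (FDR = 0.0496). Adora3 shares 779 of its 3729 exon bases with Tmigd3 on the same strand, where reads cannot be assigned to either gene by position, and Tmigd3 had 13 to 18 counts in each library. Of the mast cell and basophil markers, 5 of 6 had 0 counts in all libraries, and the sixth, Kit, was higher with GSI (0.488 and 0.617 CPM against 1.12 and 0.871 CPM).

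**Figure D2:**
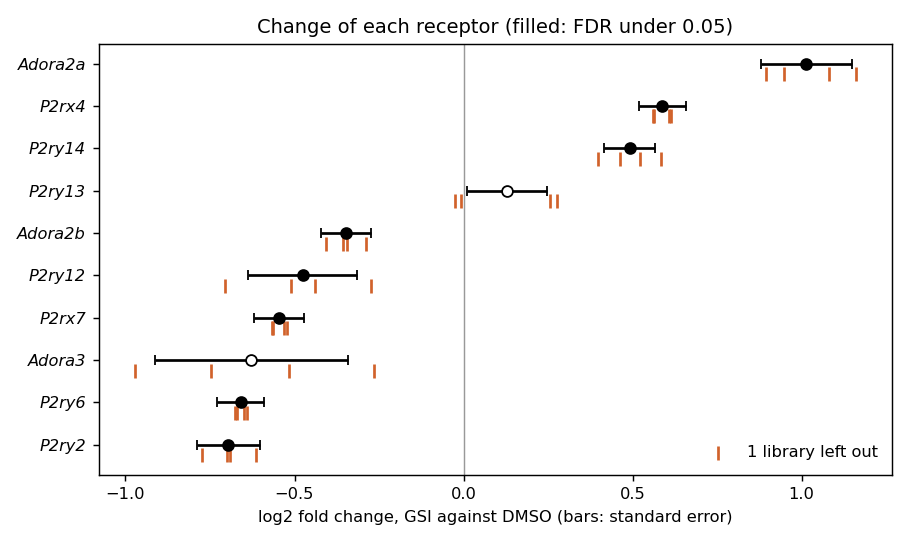
Log2 fold change of each receptor, GSI against DMSO, with its standard error (filled circles have an FDR under 0.05), and the values with each of the 4 libraries left out (ticks). P2ry13 spans 0, from -0.0247 to 0.28, and P2ry12 and Adora3 spread most, from -0.70 to -0.27 and from -0.97 to -0.26.

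Levels were compared between genes as CPM per kb of exon, counting every annotated exon once. In the DMSO libraries P2ry6 led with 44.7 and 45.4 CPM per kb, ahead of Adora2b with 35.6 and 36.0 and P2rx4 with 21.9 and 21.4. P2rx7, P2ry14, P2ry2, P2ry13, P2ry12, Adora2a and Adora3 followed in that order, with mean levels of 8.03, 7.02, 4.52, 3.49, 1.42, 1.04 and 0.286 CPM per kb. Neighbours in this order did not overlap in DMSO. In the GSI libraries P2rx4 led with 33.2 and 31.9 CPM per kb, whereas P2ry6 (28.2 and 29.0) and Adora2b (27.0 and 29.3) could not be ordered. P2ry14 (10.0 and 9.68) stood above P2rx7 (5.41 and 5.59), P2ry13 (4.15 and 3.45) above P2ry2 (2.78 and 2.80), and Adora2a (2.01 and 2.21) above P2ry12 (1.18 and 0.876). This order depends on the length used: the transcripts of P2ry14 together cover 11059 exon bases and those of P2rx4 7025, against 2887 for P2ry6 and 1845 for Adora2b. Without the division by length, P2rx4 stood above P2ry6 in the DMSO libraries too, and P2ry14 stood above Adora2b in both groups.
Among 20 receptors of the family, these 10 genes and 10 further ones, the 10 held 92.9% to 94.3% of the summed level per kb in each library. P2ry6, Adora2b and P2rx4 made up 73.8% and 74.9% of it in DMSO and 73.1% and 73.3% in GSI. Like the order, such shares depend on the length used. Over the same 20 receptors, the share of P2rx4 was 15.8% and 15.6% in DMSO and 27.4% and 25.9% in GSI, while that of P2ry6 was 32.3% and 33.1% and then 23.3% and 23.6%.

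**Figure D3:**
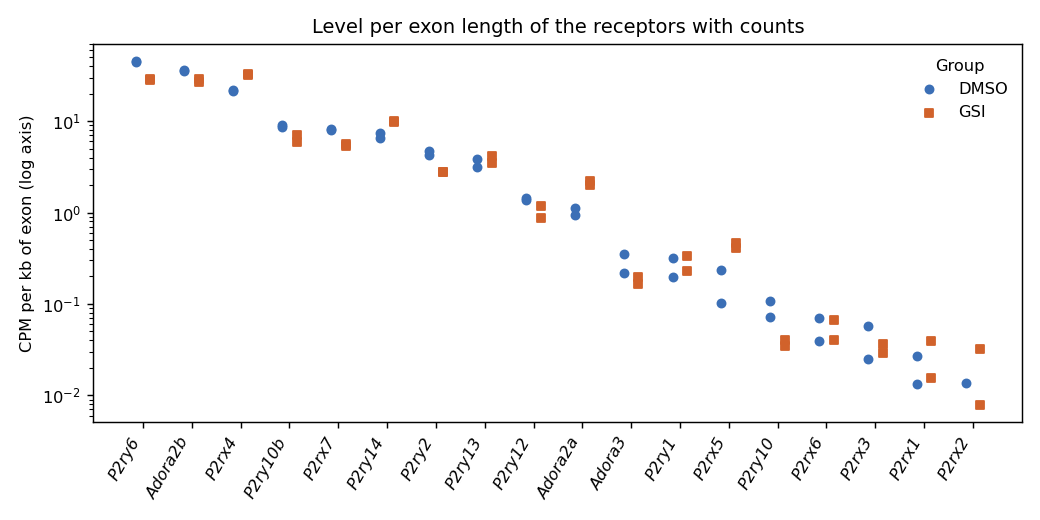
CPM per kb of exon on a log axis for the receptors with at least 1 count, ordered by their DMSO mean (circles DMSO, squares GSI, 1 point per library, libraries at 0 not drawn). P2ry6, Adora2b and P2rx4 stand highest in both groups, and P2rx4 moves above the other two in GSI.

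Of the 10 further receptors, 5 passed the filter on low counts. P2ry10b, listed in the table as A630033H20Rik and a close relative of the lysophospholipid receptor P2ry10, was the only abundant one, at 31.7 and 30.1 CPM in DMSO and 20.7 and 24.7 CPM in GSI. P2ry10b was called lower (log2 fold change -0.44 ± 0.0884, edgeR FDR = 0.000429), though reads of P2ry10 and P2ry10b may be hard to separate. P2rx5, another ATP-gated channel, had 24 and 14 counts in DMSO and 54 and 48 in GSI. P2rx5 was called higher, with a log2 fold change of 1.43 ± 0.33 (edgeR FDR = 0.00158), a call that was lost without DMSO replicate 2. P2ry1, a Gq-coupled ADP receptor, was not called and had 36 to 78 counts in each library, with a log2 fold change of 0.09. P2rx6 had 8 to 13 counts and a log2 fold change of 0.02. P2ry10 had 14 and 12 counts in DMSO and 5 and 6 in GSI and was not called (edgeR FDR = 0.0818). P2rx1, P2rx2 and P2rx3 had at most 9 counts in any library, and P2ry4 and Adora1 had 0 counts in all 4.

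The enzymes that turn ATP into adenosine on the cell surface were represented mainly by Entpd1, which hydrolyses ATP and ADP to AMP. Entpd1 was at 350 and 369 CPM in DMSO and at 246 and 272 CPM in GSI, and was called lower (log2 fold change -0.47, edgeR FDR = 3.08e-05). Nt5e, the enzyme that makes adenosine from AMP, had 1 and 1 counts in DMSO and 2 and 0 in GSI, at or under the limit of 3 counts, and Alpl, Entpd3 and Entpd8 had 0 in all libraries. Of the 11 genes of this list 4 were tested, with 1 lower and 2 higher, against 21.9% lower and 19.0% higher over all genes tested, and with a median log2 fold change of 0.20, against 0.01. The higher ones were Cd38, an NAD-consuming surface enzyme, from 2.14 and 2.26 to 5.44 and 5.75 CPM, and Enpp4, which cleaves dinucleotides, from 22.7 and 21.5 to 38.7 and 41.6 CPM. Their log2 fold changes were 1.34 and 0.86. For nucleotide release, 3 of 5 genes were tested and 1 was called, against 40.8% called over all genes tested. This was Gja1, a gap junction and hemichannel protein, which fell from 3.88 and 3.98 to 1.86 and 2.05 CPM. Panx1, the pannexin channel that releases ATP, was at 8.60 and 8.58 CPM in DMSO and at 9.27 and 10.4 CPM in GSI and was not called (FDR = 0.138).

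Of 11 genes of adenosine uptake and breakdown, 9 were tested, 3 lower and 2 higher, with a median log2 fold change of 0.01. The 5 called of 9 stand near the 45.2% called among genes averaging at least 1 CPM. Ada, which deaminates adenosine to inosine, went from 9.60 and 8.34 to 5.88 and 4.43 CPM, a log2 fold change of -0.79. Adk, which phosphorylates adenosine, and Slc29a1, the equilibrative nucleoside transporter, were also lower, with log2 fold changes of -0.41 and -0.32. Pnp, which acts on inosine and had the highest level of the list, rose from 725 and 798 to 916 and 985 CPM. Its near-identical copy Pnp2 rose from 4.42 and 4.42 to 9.27 and 9.94 CPM. Both values are uncertain because reads may be split between the copies, and all 750 annotated exon bases of Pnp are shared with another gene model on the same strand.

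Downstream of the G protein-coupled receptors, 8 of 10 genes of α subunits were tested and 4 were lower and 0 higher, against 21.9% lower and 19.0% higher over all genes. Their median log2 fold change was -0.18, and only 2 were called without DMSO replicate 2. The largest change was that of Gna15, a Gq-family subunit of blood cells, at -0.54, followed by Gnaq at -0.25, Gna12 at -0.22 and Gnai2, the Gi subunit with the highest level per kb, at -0.19. Gnas, which encodes the Gs subunit used by Adora2a and Adora2b, was at 831 and 842 CPM in DMSO and 768 and 760 CPM in GSI and was not called (FDR = 0.153).
Of 19 genes of enzymes that make and degrade cAMP, 13 were tested, 9 lower and 1 higher, against 21.9% lower and 19.0% higher over all genes. Only 6 were lower with DESeq2, and 7 without DMSO replicate 2, GSI replicate 1 or GSI replicate 2. The list had a median log2 fold change of -0.61. Adcy4 and Pde4d passed the additional threshold of 1.5, at -1.86 and -1.78. Adcy4 had only 13 and 25 counts in DMSO and 6 and 4 in GSI. Pde4d was also low, with 38 and 61 counts in DMSO and 8 and 20 in GSI, and its GSI libraries lay far apart. Adcy7, the adenylyl cyclase with the most counts, was named after its values were seen and went from 235 and 236 to 121 and 131 CPM, a log2 fold change of -0.90. Adcy9 was lower by a log2 fold change of -1.07. Among the phosphodiesterases, Pde3b fell from 15.3 and 14.1 to 4.61 and 5.85 CPM (log2 fold change -1.49), and Pde4b, with the highest level of the list, from 524 and 518 to 331 and 354 CPM (-0.61). Pde8b was the exception, rising from 3.00 and 3.01 to 6.25 and 5.43 CPM, a log2 fold change of 0.96.
Of 7 inflammasome genes, into which P2rx7 feeds, 3 were lower and 2 higher (21.9% and 19.0% over all genes), with a median log2 fold change of -0.18, and 3 were called without DMSO replicate 1. Il1b, its cytokine, and Nlrp3, the sensor, had log2 fold changes of -1.71 and -0.58, Nek7 -0.27, Pycard 0.20 and Gsdmd, the pore-forming gasdermin, 0.27. Casp1, the protease, was at 406 and 384 CPM in DMSO and 408 and 411 CPM in GSI and was not called.

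**Figure D4:**
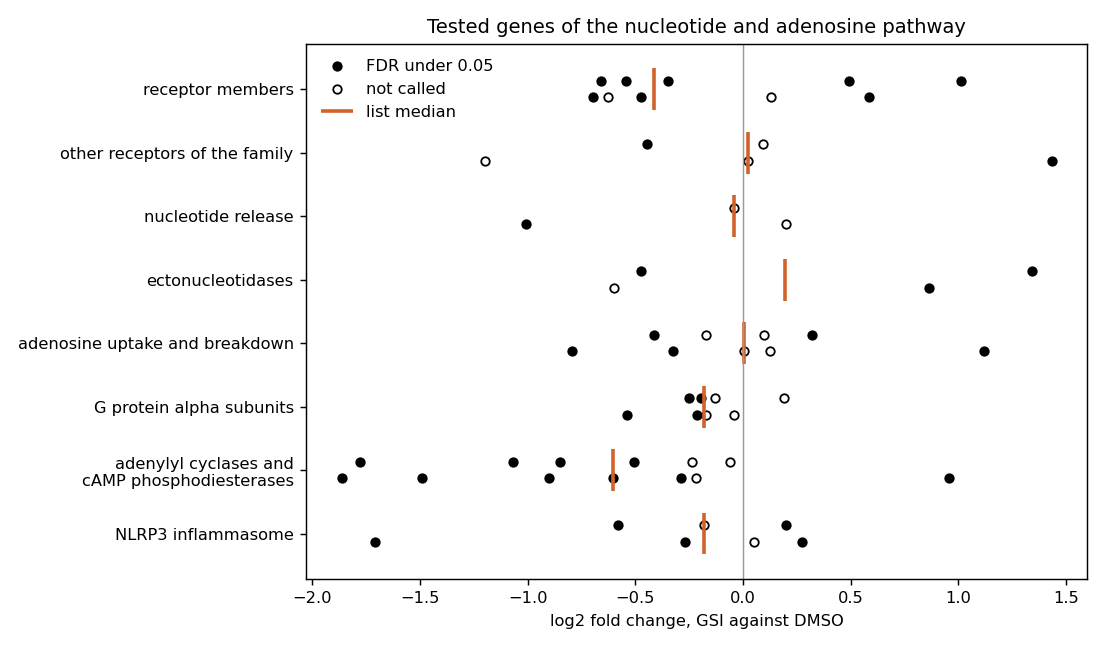
Log2 fold changes, GSI against DMSO, of the tested genes of each list (filled points have an FDR under 0.05, orange bars are list medians). The list of adenylyl cyclases and cAMP phosphodiesterases lies mostly below 0, with a median of -0.61, while the receptors lie on both sides of 0.

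Markers of cell types also moved between the groups. Of the 8 macrophage markers 6 were lower and 1 higher with GSI, against 21.9% and 19.0% over all genes, and their summed level was 12300 and 12500 CPM in DMSO and 9500 and 10400 CPM in GSI. Of 6 dendritic cell markers 3 were tested, with Clec9a and Xcr1 lower and 0 higher. The summed level of this list, 186 and 179 against 113 and 115 CPM, was almost all Clec9a. Xcr1 was at 5.02 and 4.64 CPM in DMSO and at 3.77 and 3.44 CPM in GSI. Zbtb46 was not called, Cd209a and Siglech were at 0 and Flt3 had at most 2 counts. Low summed levels were found for 5 further lists: 0.697 to 1.43 CPM for neutrophils and their precursors, 0.488 to 1.12 CPM for mast cells and basophils, 0.405 to 0.617 CPM for platelets, 0.0232 to 0.145 CPM for lymphocytes and 0.0621 to 0.162 CPM for stromal cells. The part of these markers in the receptor changes was not tested, and in these bulk samples fewer cells of a type and less RNA per cell cannot be told apart.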

How the data were processed

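RNA of LPS/IC-activated BMMs was made into strand-specific poly(A) libraries and sequenced on an Illumina NextSeq. The authors trimmed reads with Trimmomatic, aligned them with STAR (2.5.0a in the submitters' processing notes) to mm10 and counted them per gene with HTSeq. They deposited raw counts for 47069 Ensembl genes in 16 columns. The HTSeq mode and strand setting are not given in the sources used here.

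The 4 columns of each replicate were added up, as they varied about as much as sampling noise gives (chi-square per degree of freedom 1.01 to 1.03, against 14.7 and 16.6 between replicates). Counts were tested with edgeR 4.0.16 in R 4.3.3 (glmQLFit, glmQLFTest, filterByExpr, TMM, group as the only factor), with thresholds of an FDR under 0.05 and, in addition, a log2 fold change above 1.5 in size. The standard error is the log2 fold change divided by the square root of F. The fit was tested on simulated counts.

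The receptors and lists were chosen with earlier results of these data known. The summed level of the microglia markers is not reported here. Lists are described by counts and medians, with no set test. Named were all receptors, up to 5 largest called changes of each pathway list, its gene of highest level, and genes that overlap a receptor. Others, such as Panx1, Gnas, Casp1 and genes listed at 0, were named after their values were seen. GENCODE M21 held 98.95% of the gene IDs. Symbols of the table were used, except that P2ry10b and Itgam were matched by ID. Alternatives were DESeq2 1.42.0, other scalings and filters, a replicate block, the likelihood ratio test, 16 separate runs, and leaving out each library, where the lone library of a group is assumed to vary like the others.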

Additional observations from a re-analysis of the deposited data

How the results depend on the processing

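Of the 10 receptors, 7 (P2rx4, P2rx7, P2ry2, P2ry6, P2ry14, Adora2a and Adora2b) kept their direction and their call in all 12 alternatives, and 7 to 9 receptors were called in each. P2ry12 lost its call with DESeq2 and without DMSO replicate 2 or GSI replicate 2. Adora3 was called with no filter on low counts (FDR = 0.0496), with the runs as separate samples (FDR = 0.0455) and without DMSO replicate 2. P2ry13, which was called in none of the alternatives, ran from -0.0247 to 0.28 with 1 library left out, being -0.0247 without DMSO replicate 2 and -0.0082 without GSI replicate 1. Over all genes, 385 passed both thresholds, 154 with at least 10 counts in every library and 178 with the 16 runs as separate samples, the latter treating repeat runs as samples. With the runs separate, 1 of the 2 further receptors tested and 2 of the 3 nucleotide release genes tested were called. With the 4 libraries, 5 of the further receptors were tested. Among all genes tested, 7582 of 11179 were called with the runs separate and 4222 of 13211 with DESeq2. Without 1 library, fewer of the further receptors, G protein α subunits and inflammasome genes were called in some refits. Fewer were then called among all genes too, so these falls are no result about the lists alone. Other causes were not tested.

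The replicate numbers of the groups carry no stated meaning. Deviations from the group means correlated between equal numbers with r = 0.155 across 13211 genes, which with 2 pairs gives a single value. With the replicate number as a block, 6444 genes were called in place of 5392, and 9 receptors in place of 8, since Adora3 was then called (log2 fold change -0.63, FDR = 0.0412). Adora3 and P2rx5 had under 60 counts in every library, which limits their precision at this depth.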
